A study of Mus musculus with 36 samples.

Results

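Hippocampal slices of T41B mice that had been given theta-burst stimulation were compared between mice dosed with BD10-2 and mice dosed with vehicle. All libraries whose labels read genotype T41B and stimulation STIM were taken, and libraries that shared a mouse and a stimulation label were added together. This gave 10 of the 36 libraries of the study and 9 of its 32 combinations of mouse and slice. The BD10-2 group (labelled PTX-BD10-2) held 5 mice and 6 libraries, and the vehicle group (labelled VEH) held 4 mice and 4 libraries.

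T41B mice (Line 41) are an amyloid model that carries human APP with the London and Swedish mutations behind a Thy1 cassette, which directs the transgene to neurons, so that human APP is present in both groups and WT mice are not part of this comparison. Dosing by oral gavage began at 13 months of age and ended at 16 months, 3 months in all. Each right hippocampal slice was given theta-burst stimulation 3 times. Each time, 10 bursts were delivered 200 ms apart, and each burst consisted of 4 stimuli given at 100 Hz. The slices were frozen directly afterwards, and each library used 200 ng of total RNA with ribosomal RNA removed. The wider study also holds sham slices, which went through the same procedure without stimulation, and C57BL/6 wild-type (WT) mice.

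Every batch of the study holds 1 treatment. The BD10-2 slices came from batches H (Mouse1563 and Mouse1564), I (Mouse1570 and Mouse1572) and D (Mouse1592), and the vehicle slices from batches A (Mouse1510), G (Mouse1551 and Mouse1553) and C (Mouse1579). Treatment and batch therefore cannot be told apart in any value below, and a within-batch difference does not exist. What the labels call a batch is not described further.

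BD10-2 is a small molecule that partially activates TrkB and TrkC, the receptor tyrosine kinases for the neurotrophins BDNF and neurotrophin-3. In the hippocampus these receptors signal through Ras and MAP kinases, PI3 kinase and Akt, and phospholipase C-gamma, and they are known for their part in synaptic plasticity. Microglia are the resident macrophages of the brain. In healthy tissue they express a homeostatic set of surface receptors, and around amyloid plaques they express another set that depends on the lipid receptor Trem2.

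The summed total count ran from 15639299 to 34644361 per mouse, with the highest total in Mouse1592, the only mouse with 2 libraries. The share of mitochondrial genes lay between 2.36% and 5.40%, and that of the 10 most abundant genes between 14.4% and 18.9%. An exact two-sided permutation test of each of these 3 measures between the groups gave p = 0.770, 0.643 and 0.952, where 5 against 4 mice allow no p below 0.0159. Thy1, the gene whose cassette drives the transgene, lay between 1054 and 2506 CPM (counts relative to the TMM-adjusted size of the library) in the 9 mice, against 253 to 384 CPM in stimulated WT slices. Whether reads of the transgene are counted under it is not given. Markers of pyramidal neurons and of dentate granule cells such as Wfs1 and Prox1 were present in all 9.

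The first of the 2 libraries of Mouse1592 stood apart for some genes. It held 918 CPM of Thy1 against 1937 CPM in the second library. Ifit1, an interferon-induced gene, was 29.2 CPM in the first library and 125 CPM in the second, below the range of 156 to 406 CPM in the other stimulated T41B mice. Il1rn, the interleukin-1 receptor antagonist, was 42.7 and 121 CPM, against 171 to 708 CPM in the others. Cst7, a plaque-associated microglial gene, was 13.5 and 37.0 CPM. For other genes the libraries were close, with 264 and 265 CPM of Tnf and 1174 and 1134 CPM of App. The microglial genes Tmem119 (5.75 and 6.03 CPM) and P2ry13 (2.16 and 2.45 CPM) were above the range of the other stimulated T41B mice in both libraries. Whether the first library carries the right label was not tested. The list medians for stimulated T41B slices are therefore also given without the first library.

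No gene was called between BD10-2 and vehicle at an edgeR adjusted p under 0.05, which is 0% of the 19478 genes tested, and the smallest adjusted p was 0.581. At an unadjusted p under 0.05, 759 genes (3.9%) stood apart, 576 of them higher with BD10-2 (2.96% of genes tested) and 183 lower (0.94%). DESeq2 also called no gene, with 751 genes at an unadjusted p under 0.05. The log2 fold change was above 0 for 53.2% of genes, with a median of 0.01. All 5 BD10-2 values lay above all 4 vehicle values for 143 genes (0.734%), and below them for 82 genes (0.421%). These shares are the background against which the counts of each gene list are read.

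The count of 759 depended on the unit of replication and on single mice. With libraries summed within batch, so that 3 batches stood against 3, it was 503, with 1.93% of genes higher and 0.657% lower, and no gene was called. The fit over mice treats mice that share a batch as independent, so counts of list members below are also given with libraries summed within batch where that changed them. Over mice, the count was 472 without Mouse1564 and 1276 without Mouse1592. It was 372 without batch H and 1361 without batch I, and 1013 without the first library of Mouse1592. The background share of genes higher at an unadjusted p under 0.05 moved with it. Among the BD10-2 mice it was 2.36% without Mouse1563, 1.71% without Mouse1564, 3.3% without Mouse1570, 3.73% without Mouse1572 and 4.92% without Mouse1592. Among the vehicle mice it was 2.72% without Mouse1510, 4.01% without Mouse1551, 2.27% without Mouse1553 and 2.31% without Mouse1579. It was 3.42%, 1.26% and 4.57% without batches G, H and I, and 3.96% without the first library of Mouse1592. Counts of list members with a mouse, batch or library left out are to be read against these shares. The 95% interval of the log2 fold change lay within a 2-fold change for 82.5% of all genes tested, and for 93.7% of the 16135 genes averaging at least 1 CPM. It lay within a 1.5-fold change for 72.9% of the latter. The mice are separate animals by their labels, and p-values here measure the spread between mice that also differ in batch.

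The lists described next hold 17 gene groups and 13 sets of cell type markers. A list is described by the number of members above 0, the number at an unadjusted p under 0.05, and its median log2 fold change. Per mouse, a score was formed by averaging log2(CPM + 1) across a list. No list was tested as a whole.

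**Figure D1:**
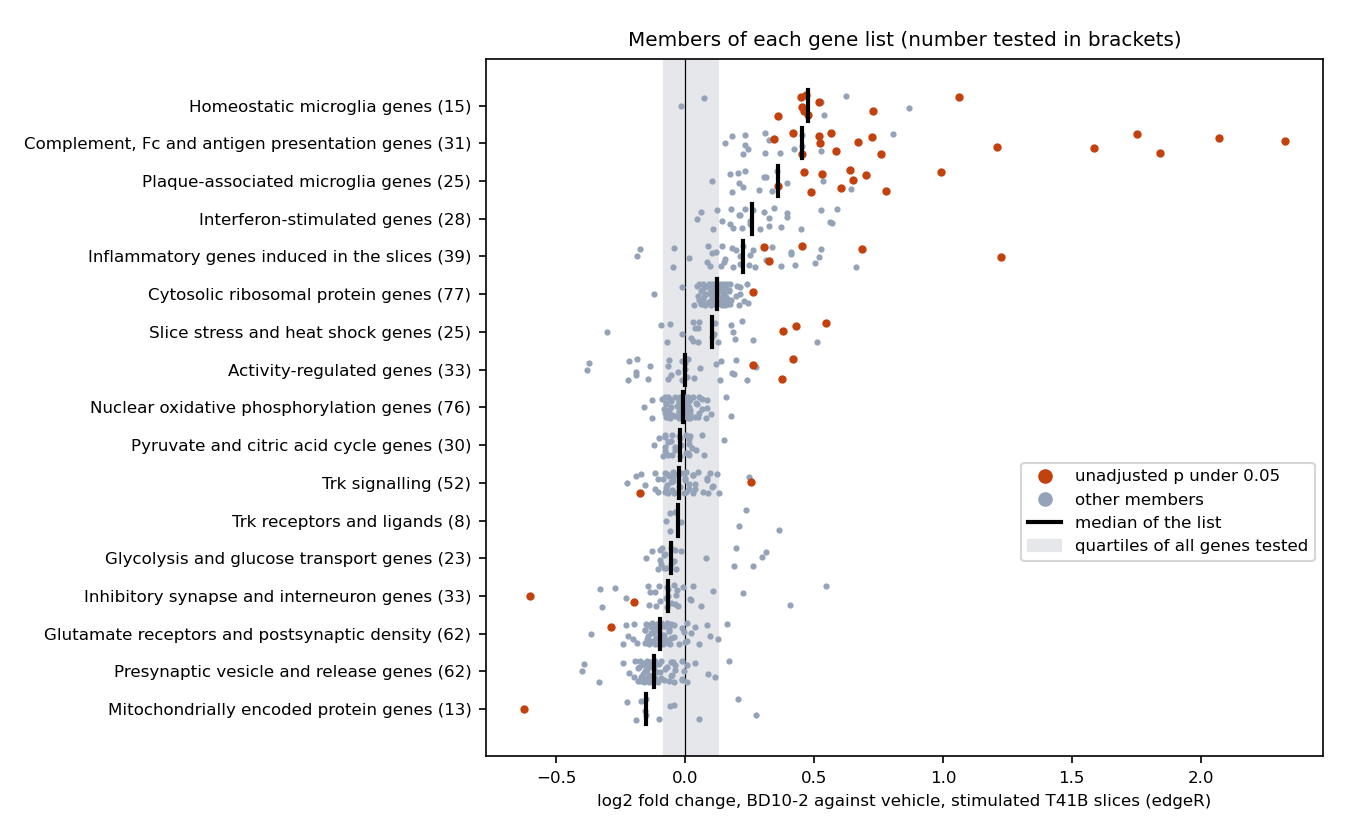
Each point is the edgeR log2 fold change (BD10-2 against vehicle, stimulated T41B slices, 5 against 4 mice) of 1 member of a gene list. Black bars are list medians, coloured points have an unadjusted p under 0.05, and the grey band spans the quartiles of all genes tested; the 3 lists at the top have medians of 0.36 to 0.48, and the presynaptic list has a median of -0.12.

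Homeostatic microglia genes had a median log2 fold change of 0.48 with BD10-2. Of the 15 members, 14 were above 0 and 9 had an unadjusted p under 0.05, all of them higher (background 2.96%). They included P2ry13, Selplg, Siglech, Olfml3, Csf1r, P2ry12 and Cx3cr1. Sall1, a transcription factor of microglial identity, was the only member below 0, at -0.02. These differences were measured at a level below that of sham T41B slices. The mean list score was 3.488 with BD10-2 and 3.142 with vehicle, against 4.775 and 4.675 in sham slices. The size of this gap varied by gene. Median P2ry13 was 1.64 and 0.831 CPM, against 13.7 and 11.6 CPM in sham slices, and Siglech 18.1 and 13.8 CPM, against 21.5 and 20.3 CPM. The cause of the lower level was not tested.

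P2ry13, a purine receptor of microglia, was 1.64, 1.14, 1.65, 1.63 and 2.31 CPM in the BD10-2 slices of Mouse1563, Mouse1564, Mouse1570, Mouse1572 and Mouse1592. In the vehicle slices of Mouse1510, Mouse1551, Mouse1553 and Mouse1579 it was 0.909, 0.681, 0.880 and 0.781 CPM. All 5 BD10-2 values were above the 4 vehicle values, and P2ry13 was the only member of the list with no overlap. The log2 fold change was 1.06 (SE 0.30, 95% interval 0.44 to 1.69, edgeR unadjusted p = 0.00132, adjusted p = 0.805). P2ry13 lies at chr3:59207892-59210882 on the minus strand in GRCm38.

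P2ry12, the ADP receptor that steers microglial processes towards injury, was 9.07, 6.35, 7.66, 4.27 and 10.8 CPM with BD10-2, in the same order of mice, and 5.45, 5.56, 5.61 and 4.88 CPM with vehicle. Mouse1572 had the lowest of the 9 values and the other 4 BD10-2 mice lay above all vehicle mice. Its log2 fold change was 0.52 (SE 0.23, edgeR unadjusted p = 0.0345). Csf1r, the receptor that microglia need for survival, was 112 ± 17 CPM (SD, n = 5) with BD10-2 and 87.4 ± 8.96 CPM (SD, n = 4) with vehicle, with log2 fold change 0.36 and SE 0.14. Tmem119 had a log2 fold change of 0.63 with an interval that included 0 (-0.01 to 1.27).

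The homeostatic median stayed between 0.33 and 0.70 over 26 other settings and left-out mice or batches, and was 0.53 without the first library of Mouse1592. The count of 9 members went down to 5 without Mouse1510, and was 6 without batch H and 10 with libraries summed within batch. The microglia marker list, which shares 5 genes with the homeostatic list, had a median of 0.52, with 9 of 9 members above 0 and 8 at an unadjusted p under 0.05. This count was 3 without Mouse1510, 5 without Mouse1553, 5 without Mouse1592, 5 without batch G and 4 without batch H, where the median was 0.52, and it was 7 with libraries summed within batch. Without the first library of Mouse1592 the marker median was 0.55. The summed level of these markers was 478 to 761 CPM with BD10-2 and 359 to 527 CPM with vehicle, and none was at 0. Their part in the values of the microglial and immune lists was not tested. In RNA from whole slices, more microglia and more RNA per microglial cell cannot be told apart.

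**Figure D2:**
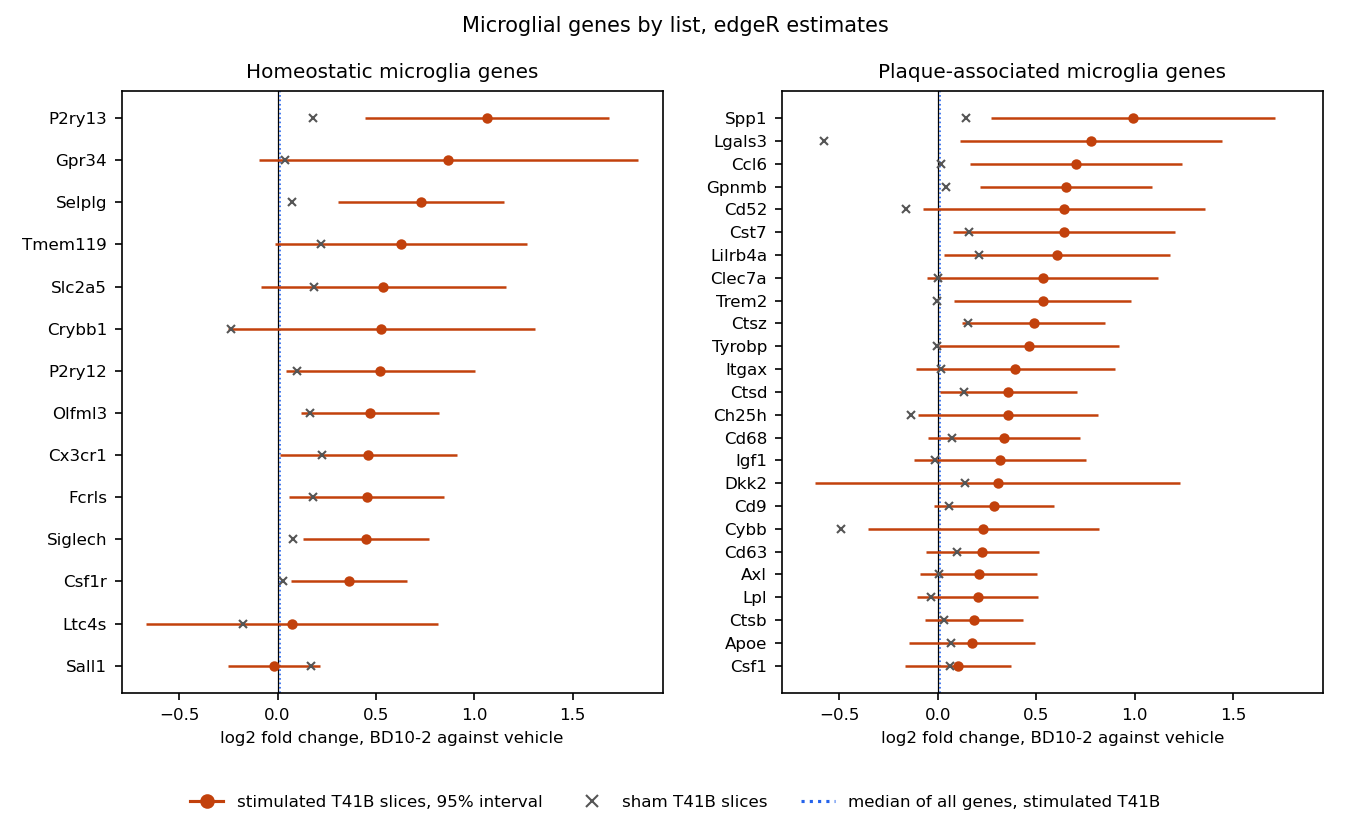
Points and bars are the edgeR log2 fold changes with 95% intervals of homeostatic (left, 14 of 15 members) and plaque-associated (right) microglia genes in stimulated T41B slices, 5 BD10-2 against 4 vehicle mice. Crosses are the same genes in sham T41B slices, and the dotted line is the median of all genes; P2ry13 (1.06) and Spp1 (0.99) have the highest values of the lists, and the sham values lie nearer to 0 for most genes.

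Plaque-associated microglia genes had a median of 0.36. All 25 members were above 0 and 10 had an unadjusted p under 0.05, all higher. They included Trem2 and its signalling adaptor Tyrobp, the cathepsins Ctsd and Ctsz, and Gpnmb, Spp1, Lgals3, Cst7, Ccl6 and Lilrb4a. For this list the BD10-2 mice were not alike. The score was 5.79 and 5.82 in the mice of batch H and between 5.08 and 5.29 in the other 3 BD10-2 mice. The vehicle scores ran from 4.78 in Mouse1510 to 5.46 in Mouse1551.

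Trem2 was 57.6, 67.1, 34.8, 37.7 and 34.5 CPM with BD10-2 and 23, 42.4, 30.7 and 32.2 CPM with vehicle. Only the mice of batch H exceeded Mouse1551. The log2 fold change was 0.53 (SE 0.22, edgeR unadjusted p = 0.0229; 0.0546 with libraries summed within batch) and went to 0.16 without batch H. Spp1, which encodes osteopontin, was 48.1, 23.5, 18.7, 15.6 and 12.2 CPM against 6.09, 17.3, 12.8 and 11.5 CPM, with overlap. Its log2 fold change was 0.99 (SE 0.35, edgeR unadjusted p = 0.00992), and 0.38 without batch H. Cst7, a cathepsin inhibitor, was 66.1, 59.2, 25.7, 29.7 and 26.2 CPM against 16.2, 42.6, 22.5 and 25 CPM, and without batch H its log2 fold change was 0.04. Apoe, the main lipid carrier of the brain, was above 0 without reaching an unadjusted p of 0.05.

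The plaque-associated median was 0.44 without the first library of Mouse1592, 0.10 without batch H, and between 0.27 and 0.63 in the other settings. The count of 10 members was 14 without that library, 7 with libraries summed within batch and 0 without batch H. It was 1 of 25 without Mouse1510, near the share of all genes in that fit (2.72%), 3 without Mouse1563, 3 without Mouse1564, 5 without Mouse1553 and 5 without Mouse1579. It was 17 without Mouse1551, 17 without Mouse1592 and 17 without batch G. The medians without Mouse1551 and without batch G were 0.54 and 0.63.

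Complement, Fc receptor and antigen presentation genes were, by number, the group with the most members at an unadjusted p under 0.05, 16 of 31. By share this was 51.6%, against 60% of the homeostatic list and 88.9% of the microglia markers (background 2.96% higher). All 31 complement, Fc receptor and antigen presentation genes were above 0, with a median log2 fold change of 0.45. The members at an unadjusted p under 0.05 came from the complement system (C3, C1qa, C1qb, C1qc and the complement receptor subunits Itgam and Itgb2), from Fc receptor signalling (Fcgr3, Fcgr2b, Fcer1g and Syk), and from MHC class II presentation (H2-Eb1, H2-Aa, H2-Ab1, H2-DMb1 and the invariant chain Cd74), together with the costimulator Cd80. The list shares C1qa with the microglia markers.

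C1qa, a chain of the complement component that tags synapses and debris, was 117, 119, 77.8, 92.5 and 89.1 CPM with BD10-2 and 41.9, 78.1, 54.5 and 59.4 CPM with vehicle. The groups met at 1 point, where Mouse1551 lay just above Mouse1570. The log2 fold change was 0.76 (SE 0.20, 95% interval 0.35 to 1.17, edgeR unadjusted p = 0.000772, adjusted p = 0.719), and it lay between 0.63 and 0.93 when any 1 mouse was left out. C1qb and C1qc had log2 fold changes of 0.52 and 0.59. C3, the central component of the complement cascade, was 26.5, 33.6, 14.3, 23.9 and 8.90 CPM against 9.27, 13.7, 7.32 and 6.57 CPM. Mouse1592 lay among the vehicle mice and the other 4 BD10-2 mice above them. Its log2 fold change was 1.21 (SE 0.30, edgeR unadjusted p = 0.00046).

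The genes H2-Eb1, H2-Aa, H2-Ab1, H2-DMb1 and Cd74 of MHC class II presentation had log2 fold changes between 1.59 and 2.33, and H2-DMa and Ciita of the same pathway had lower ones. MHC class II molecules present peptides to helper T cells, and in the brain they are made mostly by activated microglia and by macrophages. H2-Eb1 was 5.53, 10.5, 11, 59.2 and 5.79 CPM with BD10-2 and 2.32, 4.32, 3.52 and 4.49 CPM with vehicle. H2-Aa was 12.8, 18.5, 19, 72.7 and 9.96 CPM against 4.00, 9.08, 5.72 and 6.44 CPM. H2-DMb1, which takes part in loading peptides onto class II molecules, was 2.34, 2.16, 2.24, 9.04 and 1.92 CPM against 1.36, 1.08, 0.715 and 1.5 CPM. For these 3 genes all BD10-2 values were above all vehicle values, and Mouse1572 was far above the other BD10-2 mice.

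The log2 fold change was 2.33 for H2-Eb1 (SE 0.60, edgeR unadjusted p = 0.000931), 2.07 for H2-Aa (SE 0.59) and 1.59 for H2-DMb1 (SE 0.41). Without Mouse1572 they were 1.16, 1.25 and 0.89. Cd74 was 54.3, 102, 102, 320 and 44.5 CPM against 21.8, 51.7, 34.5 and 39.9 CPM, with a log2 fold change of 1.75, and 1.03 without Mouse1572. H2-Ab1 went from 1.84 to 0.95. H2-DMa, the partner of H2-DMb1, was 12.5, 14.1, 11.3, 20.2 and 11.2 CPM against 8.59, 12.5, 12.1 and 11.5 CPM, with overlap, and its log2 fold change of 0.31 (edgeR unadjusted p = 0.0561) became 0.14 without Mouse1572. Ciita, the class II transactivator, was 2.89, 3.72, 2.71, 7.91 and 0.975 CPM against 1.95, 3.35, 2.7 and 1.95 CPM, and its log2 fold change of 0.53 became 0.02 without Mouse1572. The H2 genes belong to a multigene family, between which RSEM divides reads, so their single values are uncertain.

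In sham T41B slices the vehicle mice alone spanned 3.69 to 35.3 CPM of H2-Aa, and the BD10-2 mice 3.81 to 23.4 CPM. In stimulated WT slices H2-Aa did not exceed 1.76 CPM. Mouse1572 has no sham slice in the study, whereas the other 8 mice do. The sham log2 fold changes were -0.52 for H2-Eb1 and -0.62 for H2-Aa. The difference between the stimulated and sham log2 fold changes was 2.85 for H2-Eb1 (edgeR unadjusted p = 0.0023) and 2.69 for H2-Aa (edgeR unadjusted p = 0.00302), and neither passed adjustment over all genes. The fit for these differences does not pair the stimulated and sham slices of a mouse. Without the stimulated slice of Mouse1572 these differences were 1.68 (SE 0.69, edgeR unadjusted p = 0.0219) and 1.87 (SE 0.75, edgeR unadjusted p = 0.0198).

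The promoters of the 3 class II genes without overlap between groups are shown because these genes share a known regulatory element, the Y box, an inverted CCAAT box next to the X box at which the factors that recruit CIITA assemble. The sequences are the 150 bases before the RefSeq gene start in GRCm38.p6, written 5′ to 3′ on the strand of the gene, with every match to GATTGG or its reverse complement CCAATC in capitals. The windows are chr17:34287824-34287973 (minus strand) for H2-Aa, chr17:34305717-34305866 (plus strand) for H2-Eb1 and chr17:34153041-34153190 (plus strand) for H2-DMb1. The H2-DMb1 window reaches past the start that GENCODE gives for this gene, chr17:34153072. By that annotation most of the window is transcribed, and its marked match lies after the start and not before it.
H2-Aa: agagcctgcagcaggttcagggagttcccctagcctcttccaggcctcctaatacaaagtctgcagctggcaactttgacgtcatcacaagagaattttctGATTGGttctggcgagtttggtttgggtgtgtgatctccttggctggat
H2-Eb1: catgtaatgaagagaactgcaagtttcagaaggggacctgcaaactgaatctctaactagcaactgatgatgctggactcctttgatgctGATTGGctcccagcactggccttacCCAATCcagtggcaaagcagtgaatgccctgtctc
H2-DMb1: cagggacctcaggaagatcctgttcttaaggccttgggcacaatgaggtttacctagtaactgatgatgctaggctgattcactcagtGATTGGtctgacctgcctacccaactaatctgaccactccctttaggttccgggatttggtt
GATTGG begins at position -49 from the gene start in H2-Aa, -60 in H2-Eb1 and -62 in H2-DMb1. H2-Eb1 holds a further match on the other strand. The motif occurs on either strand in the same window of 10.9% of the 32851 promoters in the RefSeq table, and a match is a description of the letters only.

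**Figure D3:**
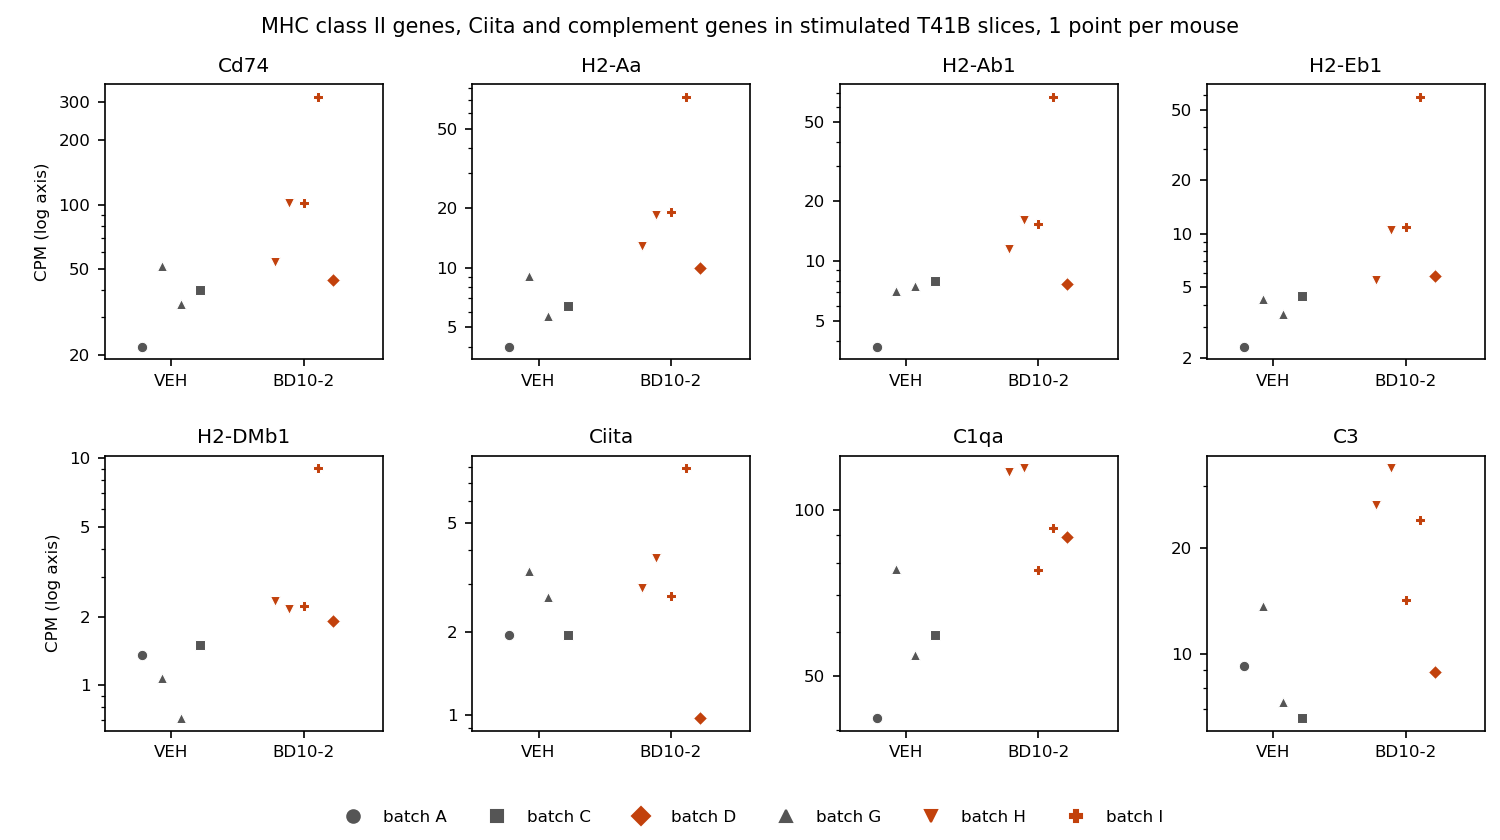
CPM per mouse on a log axis in stimulated T41B slices for MHC class II genes, Ciita, C1qa and C3, with 1 point per mouse and the marker shape giving the batch (vehicle in grey, BD10-2 in orange). Mouse1572 of batch I holds the highest value for the 5 class II genes and for Ciita, with 59.2 CPM of H2-Eb1, and Mouse1592 of batch D holds the lowest value of Ciita, 0.975 CPM.

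The median of the complement, Fc and antigen presentation list was 0.51 without the first library of Mouse1592, with 22 members at an unadjusted p under 0.05. It ran from 0.29 without batch H, where 8 members were left, to 0.68 without batch G. The count was 26 without Mouse1592 and 12 with libraries summed within batch, and H2-Eb1, H2-Aa, H2-Ab1, H2-DMb1 and Cd74 were among these 12.

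Inflammatory genes had a median of 0.23, with 35 of 39 tested members above 0 and 5 at an unadjusted p under 0.05. The 5 were the chemokine Ccl12, the acute-phase protein Lcn2, and the feedback inhibitors of NF-kappaB signalling Nfkbia, Nfkbie and Zc3h12a. With libraries summed within batch 2 of them were left, Ccl12 and Zc3h12a, and edgeR gave unadjusted p = 0.108 for Lcn2, 0.129 for Nfkbia and 0.0600 for Nfkbie. Ccl12 was 10.5, 8.39, 5.42, 26.9 and 4.17 CPM against 4.14, 5.68, 4.02 and 5.01 CPM, with a log2 fold change of 1.23 (SE 0.35) and 0.59 without Mouse1572. Il1b was 740, 703, 358, 321 and 241 CPM against 255, 426, 358 and 384 CPM. The mice of batch H held the 2 highest values and the other BD10-2 mice lay within or below the vehicle range. Tnf had a log2 fold change of 0.08 (SE 0.26).

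The inflammatory median was 0.27 without the first library of Mouse1592 and -0.10 without batch H, where 16 of 39 members were above 0. It was 0.10 without Mouse1564, 0.35 without Mouse1592 and 0.37 without batch G. The count of 5 was 3 without Mouse1510, 3 without Mouse1563 and 3 without Mouse1564, 8 without Mouse1551, 15 without Mouse1592, 9 without batch G and 2 without batch H. Interferon-stimulated genes had a median of 0.26 with 28 of 28 members above 0, and no member reached an unadjusted p of 0.05. Their score was 4.45 in Mouse1592 and 6.14 to 6.81 in the other BD10-2 mice, against 5.34 to 6.28 with vehicle. Without batch H the median was -0.12, without Mouse1592 it was 0.50 with 12 members at an unadjusted p under 0.05, without Mouse1564 0.05, without Mouse1579 0.13, without Mouse1551 0.41 and without batch G 0.63. Without the first library of Mouse1592 it was 0.31.

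Stress and heat shock genes had a median of 0.10, with 20 of 25 members above 0. Hspb1, Atf3 and Hspa1a had an unadjusted p under 0.05 and were higher, with log2 fold changes of 0.55, 0.43 and 0.38. Hspa1a and Hspa1b are near-identical copies, so their split is uncertain. The median was 0.03 without Mouse1564, 0.06 without Mouse1579, 0.06 without batch H and 0.23 without batch G. The count of 3 was 1 without Mouse1564, 0 without batch H and 5 without Mouse1592, and it was 2 with libraries summed within batch, without Hspa1a. Without the first library of Mouse1592 the median was 0.11 with 5 members in the count.

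**Figure D4:**
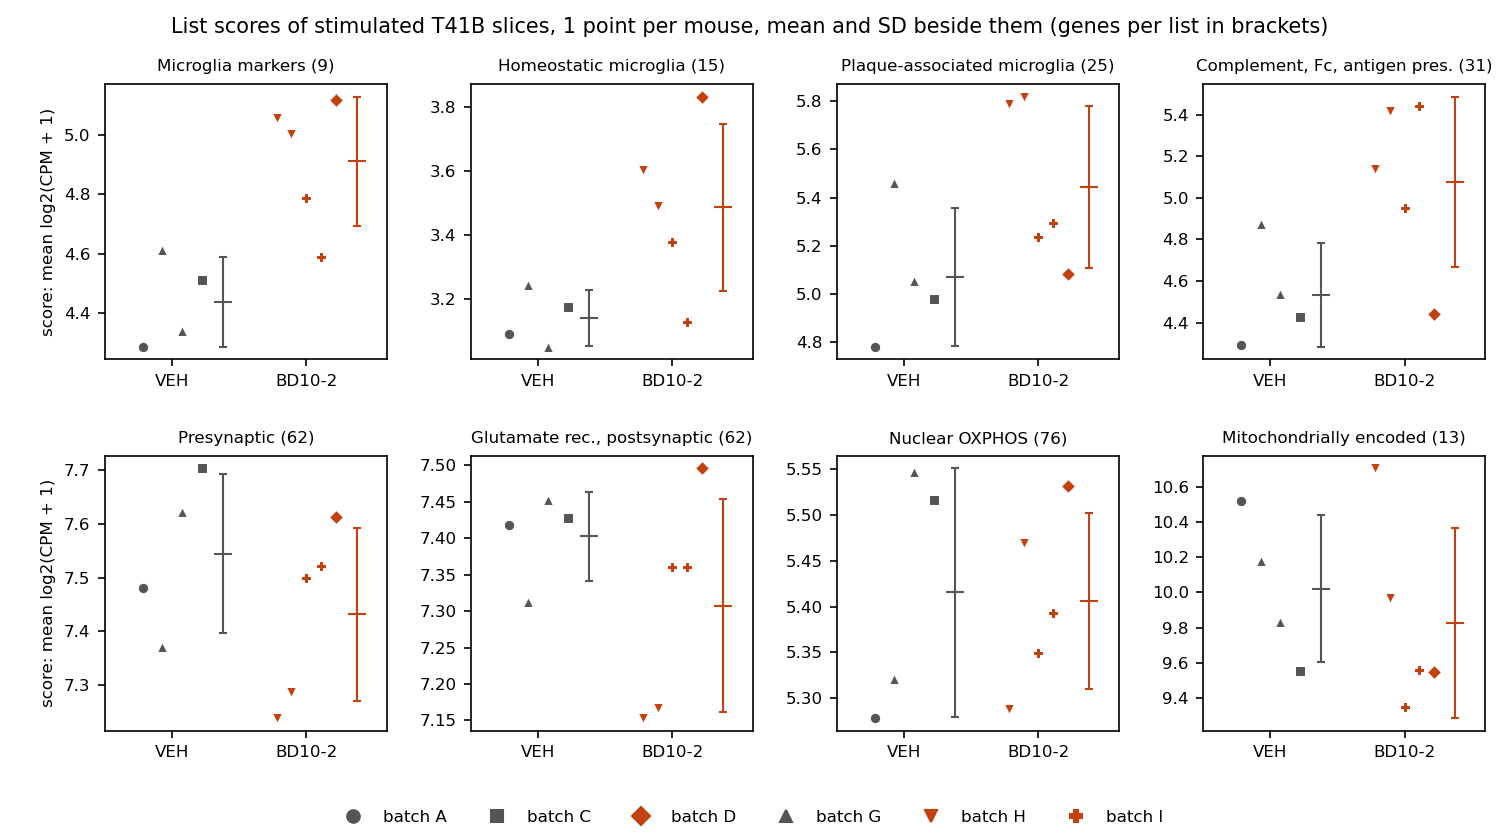
Scores (mean log2(CPM + 1) over the members of a list) of the 9 stimulated T41B slices, with 1 point per mouse, marker shape for the batch, and mean ± SD beside the points. Microglia marker scores are 4.59 to 5.12 with BD10-2 and 4.29 to 4.61 with vehicle, and in the presynaptic and postsynaptic panels the 2 mice of batch H are the lowest of the 9.

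The synaptic lists had medians below 0, and few of their members reached an unadjusted p of 0.05. Presynaptic vesicle and release genes had a median log2 fold change of -0.12, with 6 of 62 members above 0. None of them had an unadjusted p under 0.05 (background 0.94% lower). Their score was 7.43 ± 0.16 (SD, n = 5) with BD10-2 and 7.54 ± 0.15 (SD, n = 4) with vehicle, a difference smaller than either SD. Glutamate receptor and postsynaptic density genes had a median of -0.10, with 9 of 62 above 0 and 1, Cacng3, at an unadjusted p under 0.05. Inhibitory synapse and interneuron genes had a median of -0.07, with 8 of 33 above 0, and 2 members, Vip among them, were lower at an unadjusted p under 0.05. With libraries summed within batch the counts were 1, 1 and 2.

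Cacng3, an auxiliary subunit that carries AMPA receptors to the synapse, was 31.8, 33.6, 31.7, 36.0 and 38.1 CPM with BD10-2 and 47.9, 36.2, 40.0 and 43.2 CPM with vehicle. Mouse1592 lay above Mouse1551 and the other values were separate. The log2 fold change was -0.29 (SE 0.09, 95% interval -0.47 to -0.11, edgeR unadjusted p = 0.00287). In sham slices it was 0.09. Vip, an interneuron neuropeptide, had a log2 fold change of -0.60 (SE 0.28) at a level of 1.95 ± 0.534 CPM (SD, n = 5) against 3.00 ± 0.556 CPM (SD, n = 4).

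Syn1, a synaptic vesicle phosphoprotein, was 246, 256, 344, 344 and 361 CPM with BD10-2 and 309, 283, 395 and 398 CPM with vehicle. The 2 lowest values were those of batch H. Snap25, a fusion protein of the release machinery, was 552, 440, 629, 563 and 635 CPM against 565, 492, 717 and 776 CPM. Dlg4, which encodes the scaffold PSD-95, was 550, 595, 679, 678 and 706 CPM against 714, 680, 728 and 690 CPM. Only Mouse1592 lay within the vehicle range. Grin1, the obligate NMDA receptor subunit, had a log2 fold change of -0.13 (95% interval -0.32 to 0.05) and Gad1, the main GABA-synthesising enzyme, 0.02 (SE 0.11).

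Without batch H the presynaptic median was -0.00 and the postsynaptic median was -0.00, with 29 of 62 members above 0 in each list. Without batch I the presynaptic median was -0.19, and 9 presynaptic and 9 postsynaptic members were lower at an unadjusted p under 0.05, where 2.41% of all genes were. The presynaptic median was -0.08 without Mouse1563, -0.07 without Mouse1553 and -0.06 without Mouse1579. The postsynaptic median was -0.06 without Mouse1563, without Mouse1564 and without Mouse1553, and -0.15 without Mouse1592. The inhibitory median was -0.01 without Mouse1564, -0.04 without Mouse1572, -0.11 without Mouse1551, -0.13 without Mouse1592 and -0.03 without batch H. Without the first library of Mouse1592 the medians were -0.13, -0.12 and -0.09. Of the pan-neuronal markers 0 of 10 were above 0. Their median was -0.14, which was 0.00 without batch H and -0.15 without the first library of Mouse1592. Their summed level was 2129 to 2878 CPM with BD10-2 and 2359 to 3055 CPM with vehicle, with no marker at 0, and their part in the synaptic values was not tested.

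Nuclear genes of energy metabolism had medians close to 0. The 76 nuclear genes of oxidative phosphorylation had a median log2 fold change of -0.01, members between -0.16 and 0.18, 35 above 0 and none at an unadjusted p under 0.05. The group scores were 5.41 ± 0.10 (SD, n = 5) with BD10-2 and 5.42 ± 0.14 (SD, n = 4) with vehicle. Ndufa1, a complex I subunit, was 16.5, 19.7, 13.7, 15.6 and 18 CPM against 14.4, 15.7, 18.1 and 18.6 CPM, with full overlap. Pyruvate and citric acid cycle genes had a median of -0.02, with 12 of 30 above 0 and none at an unadjusted p under 0.05. Citrate synthase (Cs) was 167 ± 3.75 CPM (SD, n = 5) against 173 ± 12.5 CPM (SD, n = 4).

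Glycolysis and glucose transport genes had a median of -0.06, with 6 of 23 above 0 and none at an unadjusted p under 0.05. Hk1, the main brain hexokinase, had a log2 fold change of -0.10 (SE 0.09) and Pkm, pyruvate kinase, -0.04 (SE 0.13). The members above 0 included the inducible hexokinase Hk2 (0.30) and the transporters Slc2a1 (0.26) and Slc16a3 (0.31). Over the other settings and left-out mice, the medians ran from -0.05 to 0.05 for oxidative phosphorylation, from -0.07 to 0.02 for the citric acid cycle and from -0.11 to -0.01 for glycolysis. Without the first library of Mouse1592 they were -0.02, -0.03 and -0.06.

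The 13 protein genes of the mitochondrial genome had a median of -0.15, with 3 above 0. Their values varied widely between mice of both groups. mt-Nd1 was 5504, 3102, 2501, 2248 and 2753 CPM with BD10-2 and 5009, 3861, 2850 and 2772 CPM with vehicle. Mouse1563 and Mouse1510, 1 mouse of each group, were the highest. mt-Atp6, an ATP synthase subunit, was the member at an unadjusted p under 0.05, with a log2 fold change of -0.63 (SE 0.30). It was not under 0.05 with libraries summed within batch (edgeR unadjusted p = 0.136). Its values were 1011, 917, 289, 483 and 853 CPM against 1131, 985, 1365 and 902 CPM. The median was 0.07 without Mouse1510, 0.06 without batch I, -0.45 without Mouse1563 and -0.53 without batch H. Without any other 1 mouse it lay between -0.28 and -0.06, and without the first library of Mouse1592 it was -0.13. Reads of nuclear copies of mitochondrial genes may be divided between the copies.

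Ribosomal protein genes had a median of 0.12, with 75 of 77 members above 0 and 1, Rpl30, at an unadjusted p under 0.05 (0.26, SE 0.11; edgeR unadjusted p = 0.0573 with libraries summed within batch). Their score was 7.24 in Mouse1564, 6.87 to 6.98 in the other BD10-2 mice and 6.83 to 6.92 with vehicle, and the median was 0.05 without Mouse1564, 0.07 without batch H and 0.12 without the first library of Mouse1592. Ribosomal protein genes have many processed pseudogenes, so reads may be split between copies.

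The genes of the receptors that the compound targets had log2 fold changes near 0. Ntrk2, the TrkB gene, was 722, 730, 648, 643 and 647 CPM with BD10-2 and 722, 673, 680 and 670 CPM with vehicle. The groups overlapped fully, and the log2 fold change of -0.02 had a 95% interval of -0.18 to 0.15. Ntrk3, the TrkC gene, was 335, 258, 305, 287 and 326 CPM against 334, 316, 322 and 287 CPM, a log2 fold change of -0.06 (95% interval -0.33 to 0.21). The ligand Bdnf had -0.07 (SE 0.14), Ntf3 0.36 (SE 0.24) and the p75 receptor Ngfr 0.24 (SE 0.31). Of 10 receptors and ligands, 8 passed the filter on low counts and none had an unadjusted p under 0.05.

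Trk signalling genes had a median of -0.02, with 21 of 52 above 0. Nras, a small GTPase upstream of the MAP kinases, was higher at an unadjusted p under 0.05 (0.25, SE 0.11), and Itpr1, the calcium channel opened downstream of phospholipase C, was lower. Itpr1 was 541, 562, 648, 698 and 669 CPM against 722, 687, 728 and 681 CPM, a log2 fold change of -0.18 (SE 0.07), which was -0.07 without batch H. With libraries summed within batch no member of the list was under 0.05, and edgeR gave unadjusted p = 0.137 for Nras and 0.0602 for Itpr1. The adaptors Shc3 and Frs2 had -0.22 (SE 0.15) and 0.02 (SE 0.07).

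Activity-regulated genes, some of which neurons switch on within minutes of firing, had a median of -0.00, with 16 of 33 above 0. Fos, Fosb and Dusp1 were higher at an unadjusted p under 0.05. Fos was 518, 663, 448, 470 and 574 CPM with BD10-2 and 469, 396, 316 and 468 CPM with vehicle, and 1 BD10-2 mouse, Mouse1570, lay inside the vehicle range. Its log2 fold change was 0.38 (SE 0.15, edgeR unadjusted p = 0.0204). Arc, a regulator of AMPA receptor traffic, was 221 ± 67.0 CPM (SD, n = 5) against 252 ± 48.7 CPM (SD, n = 4), with log2 fold change -0.19 and SE 0.23. Npas4 and Egr4, 2 other immediate-early genes, had -0.38 and -0.37 without reaching an unadjusted p of 0.05. No member of the list had an unadjusted p under 0.05 without Mouse1564, without Mouse1553, without batch H or without batch G, and 1 member had one without Mouse1563 and without Mouse1510. With libraries summed within batch Fos alone had one, and edgeR gave unadjusted p = 0.0734 for Dusp1 and 0.148 for Fosb. The medians of the 3 lists ran from -0.07 to 0.05 over the other settings, and were -0.02, -0.03 and 0.01 without the first library of Mouse1592.

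Other cell type markers were also compared. Oligodendrocyte markers had a median of 0.35 with 12 of 12 above 0, and Cldn11 was the member at an unadjusted p under 0.05 (0.42, SE 0.20). Their summed level was 6358 to 11590 CPM with BD10-2 and 3596 to 8329 CPM with vehicle, with Mouse1553 the lowest. The median was 0.20 without Mouse1553, and no member was left at an unadjusted p under 0.05. Astrocyte markers had a median of 0.08, which ran from -0.08 to 0.16 over the other settings and left-out mice or batches. Gfap, the filament protein of reactive astrocytes, was 2886, 3252, 1817, 1771 and 1884 CPM against 1480, 1868, 2139 and 1725 CPM, high in batch H, and its log2 fold change of 0.36 became 0.02 without that batch. With libraries summed within batch neither Cldn11 nor Gfap was under 0.05 (edgeR unadjusted p = 0.0877 and 0.0813). Dentate granule cell markers had a median of 0.30, which was 0.14 without Mouse1592, 0.46 without Mouse1572 and 0.58 without batch I. CA1 markers had a median of -0.18, which was 0.05 without batch G. Without the first library of Mouse1592 the medians were 0.34 for oligodendrocyte, 0.09 for astrocyte, 0.22 for dentate and -0.20 for CA1 markers. Markers of blood cells and other leukocytes had a median of -0.05, with 4 of 9 tested members above 0. Cd79a was lower at an unadjusted p under 0.05. Their median ran from -0.18 to 0.14 over the other settings. The part of all these markers in the other values was not tested.

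Choroid plexus and ependymal markers had a median of -0.73, with 8 of 12 below 0. At an unadjusted p under 0.05, 3 choroid plexus genes were lower (Ttr, Slc4a5 and Clic6) and 3 ependymal genes higher. The median was -0.65 without the first library of Mouse1592, -0.10 without Mouse1551 and 0.39 without batch G. The summed level was 34.2 to 44.9 CPM with BD10-2 and 29.03 to 311 CPM with vehicle. Ttr, the transthyretin gene of the choroid plexus, was 0.149, 1.86, 0.707, 9.48 and 2.54 CPM with BD10-2 and 0.954, 249, 90.1 and 0.586 CPM with vehicle. Both high values belong to batch G, and the log2 fold change went from -4.91 to 1.83 without that batch. Slc4a5, a bicarbonate transporter, had a log2 fold change of -2.66 (SE 1.26), and Clic6, a chloride channel family member, -2.66 (SE 1.298). Both were also highest in the mice of batch G, at 1.87 and 1.10 CPM of Slc4a5 and 5.90 and 1.596 CPM of Clic6. With libraries summed within batch none of the 3 was under 0.05 (edgeR unadjusted p = 0.0649 for Ttr, 0.101 for Slc4a5 and 0.144 for Clic6). The ependymal genes Rarres2, Ccdc153 and Tmem212 were higher with no overlap between groups, at 0.66, 1.23 and 1.28, and with libraries summed within batch Tmem212 had an edgeR unadjusted p of 0.0502.

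Among genes averaging at least 1 CPM, Kank1, a regulator of actin polymerisation at chr19:25236975-25434496, had the smallest p of those higher with BD10-2. It was 34.5, 37.9, 28.8, 29.6 and 27.3 CPM with BD10-2 and 24.9, 24, 24.3 and 23.6 CPM with vehicle, without overlap (log2 fold change 0.38, SE 0.08, edgeR unadjusted p = 8.64e-05, adjusted p = 0.719). It was 0.24 without batch H. Next came Arhgap25 (0.92), a GTPase regulator of leukocytes, Tlr9 (0.77), an endosomal receptor for DNA, and Adgrv1 (0.83). Dnah11, Ccdc40 (1.31) and C3 followed, and after them the leukocyte gene Ptpn6 (0.84), Syngr2 (0.54) and Ly86 (0.78), which is in the microglia marker list. Dnah11, an axonemal dynein chain, was 4.83, 8.45, 5.95, 5.53 and 4.52 CPM against 2.64, 2.67, 1.65 and 1.3 CPM (log2 fold change 1.48, SE 0.37, edgeR unadjusted p = 0.000388). Among the lower genes, Mppe1 had the smallest p, at 5.93, 6.41, 7.19, 7.47 and 7.03 CPM against 9.54, 8.35, 8.53 and 10.0 CPM (log2 fold change -0.42, SE 0.11, edgeR unadjusted p = 0.000631). Cacng3, Gstz1, Mphosph9 and Ttr followed, then Tada2a, Plcl2, Ighmbp2, Tedc2 and Ccdc155.

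**Figure D5:**
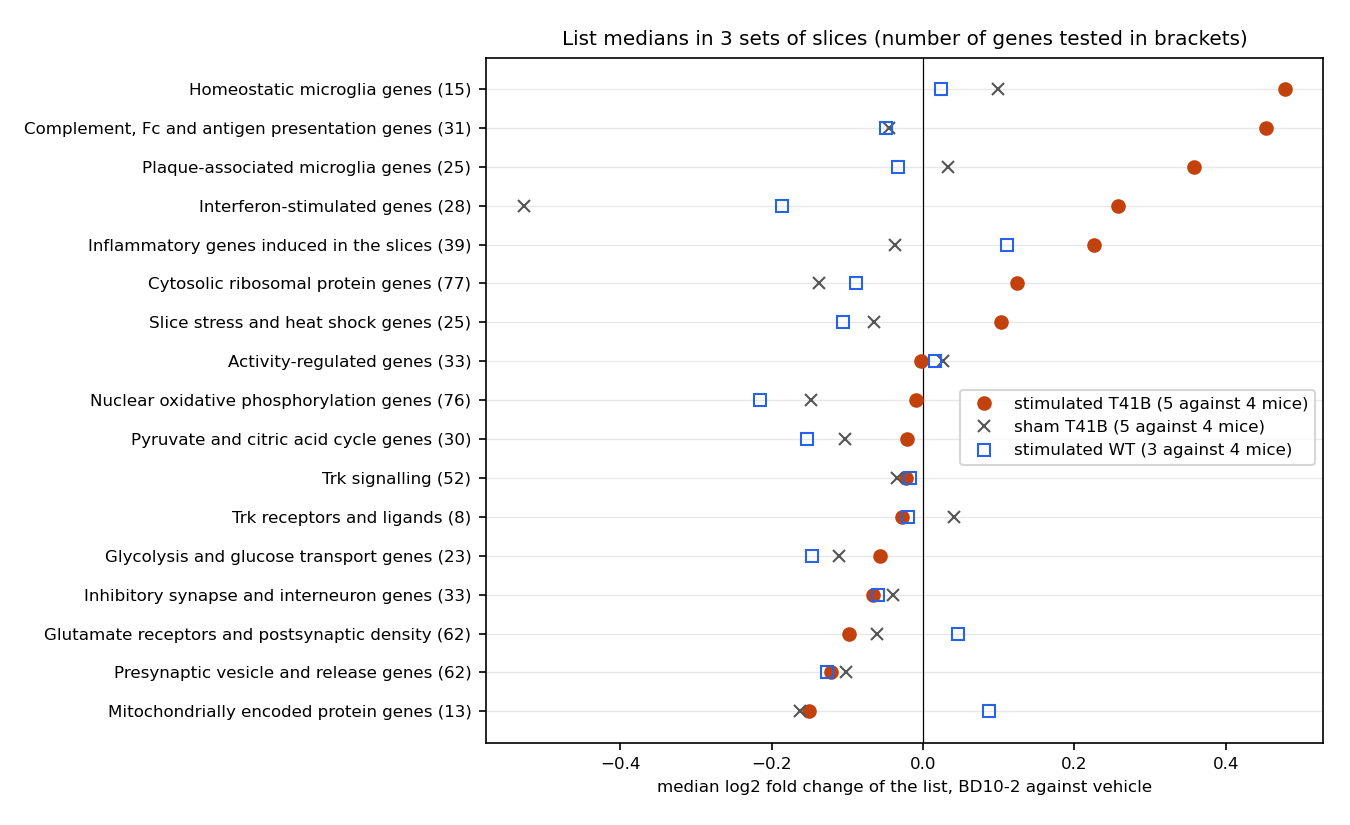
Median log2 fold change (BD10-2 against vehicle) of each gene list in stimulated T41B slices (circles, 5 against 4 mice), sham T41B slices (crosses, 5 against 4 mice) and stimulated WT slices (open squares, 3 against 4 mice). The homeostatic microglia list has 0.48, 0.10 and 0.02, the interferon list 0.26, -0.53 and -0.19, and the presynaptic list -0.12, -0.10 and -0.13.

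The same lists were set beside sham T41B and stimulated WT slices. The sham group also holds 9 mice. It shares 8 of them with the stimulated group, and in place of Mouse1572 of batch I it holds Mouse1557 of batch B, a BD10-2 mouse without a stimulated slice. Treatment and batch cannot be told apart there either, and the comparisons are not independent. In sham T41B slices 1.18% of genes were higher and 1.03% lower at an unadjusted p under 0.05. There the homeostatic median was 0.10 with no member of 15 in those counts, the plaque-associated median 0.03 and the complement and antigen presentation median -0.04, also with no member. In stimulated WT slices 2.69% were higher and 2.92% lower, and these 3 medians were 0.02, -0.03 and -0.05. The microglia marker median was 0.05 in sham T41B and -0.18 in stimulated WT slices, with no member of 9 at an unadjusted p under 0.05 in either. The ribosomal protein median, 0.12 in stimulated T41B slices, was -0.14 in sham T41B and -0.09 in stimulated WT slices. There 0 and 5 of the 77 members were above 0. The presynaptic median was -0.10 in sham T41B and -0.13 in stimulated WT slices. Nuclear oxidative phosphorylation genes had -0.15 and -0.22. In sham T41B slices 1 of 76 members was above 0 and 2 were lower at an unadjusted p under 0.05, and in stimulated WT slices 0 were above 0 and 11 were lower at that p. Choroid plexus and ependymal markers also had medians below 0 in these comparisons. Their median was -1.46 in sham T41B slices, with 1 of 12 above 0 and 4 lower at that p, and -3.21 in stimulated WT slices, with 0 of 12 above 0 and 8 lower. Ttr was at most 0.372 CPM in the stimulated WT slices with BD10-2 and ran from 0 to 1072 CPM with vehicle. The part of these markers in the oxidative phosphorylation values was not tested.

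The difference between the stimulated and sham effects in T41B slices was called for no gene by edgeR, and 526 genes (2.7%) had an unadjusted p under 0.05. Among them were 13 of 31 complement, Fc and antigen presentation genes and 8 of 28 interferon-stimulated genes, against 2 of 15 homeostatic and 1 of 25 plaque-associated genes, and 0 to 3 members of each other gene group. Of the microglia markers 2 of 9 were among them, with a median difference of 0.42, and their part in the immune lists was not tested. The 526 genes became 297 with libraries summed within batch. This edgeR fit has no term for the mouse, although 8 of the 9 mice with a stimulated slice also gave a sham slice. With limma-voom, 1235 genes had an unadjusted p under 0.05 with the mouse as a block, and 557 without block or weights. Neither called a gene. The list counts given here come from the edgeR fit, which does not pair the slices. The counts depended on which mice were in the stimulated group, as did the share of all genes at that p. This share was 2.34% without Mouse1510, 2.47% without Mouse1563, 2.29% without Mouse1564, 2.76% without Mouse1570 and 3.54% without Mouse1572, and 3.58% without Mouse1592, 3.11% without Mouse1551 and 2.42% without Mouse1579. For the complement list the count of 13 was 6 without Mouse1510, 8 without Mouse1563, 8 without Mouse1564, 11 without Mouse1572 and 20 without Mouse1592. For the interferon list the count of 8 was 2 without Mouse1564, 5 without Mouse1510, 5 without Mouse1579 and 24 without Mouse1592. For the inflammatory list the count of 2 of 39 was 7 without Mouse1592, 4 without Mouse1551 and 3 without Mouse1570 or Mouse1572. For the microglia markers the count of 2 of 9 was 4 without Mouse1572, 3 without Mouse1592 or Mouse1551 and 1 without Mouse1510. For the plaque-associated list the count was 8 of 25 without Mouse1551, 4 without Mouse1592, 3 without Mouse1572 and 2 without Mouse1570. For the homeostatic list the count of 2 of 15 was 0 without Mouse1592, 1 without Mouse1510, Mouse1551 or Mouse1564, and 3 without Mouse1572. A count of 2 of 15 is a larger share than those of all genes, but nothing is read from counts of 1 or 2 members. The interferon median was 0.26 in stimulated and -0.53 in sham slices, where 6 members were lower at an unadjusted p under 0.05. The difference between stimulated T41B and stimulated WT slices was also called for no gene, with 940 genes (4.83%) at an unadjusted p under 0.05, and these held 8 of 31 complement, Fc and antigen presentation genes, 2 of 15 homeostatic, 2 of 25 plaque-associated, 2 of 28 interferon-stimulated, 4 of 25 stress, 4 of 33 activity-regulated, 5 of 76 nuclear oxidative phosphorylation and 1 of 62 presynaptic genes, and 0 to 3 members of each other gene group. The microglia markers had a median difference of 0.70 there, with 3 of 9 members at that p.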

How the data were processed

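RNA sequencing libraries of mouse hippocampal slices were analysed from the expected counts per gene that the authors deposited. RSEM estimates these counts, which may hold decimals, and library size has not been corrected in them. Per the submitters' processing notes the tools were cutadapt 1.8.1, STAR 2.7.6a, RSEM 1.3.1, featureCounts 1.6 and SAMtools 1.11, with the builds GRCm38.p6 and mm10. Which annotation release was used, and whether strand was used in counting, is not given in the sources used here, so overlapping and antisense genes are uncertain. Symbols were found for 55154 of 55421 gene identifiers. Gene coordinates are those of GENCODE M21 (GRCm38).

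Expected counts were rounded, libraries of 1 mouse and stimulation were summed, and genes were filtered with filterByExpr (minimum count 10), which kept 19478. After TMM scaling the counts were tested with the quasi-likelihood F test of edgeR 4.0.16 in R 4.3.3, in 1 fit with a coefficient for each of the 8 groups and no covariate, since every batch holds 1 treatment. Adjusted p-values are Benjamini-Hochberg values across every gene that passed the filter. The unit of replication is the mouse.

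The alternatives were DESeq2 1.42.0, limma-voom (limma 3.58.1) with sample quality weights, without weights, or with batch or mouse as a correlated block, other scaling factors, no filter, fewer groups, counts summed within batch, a correction for gene length and GC content, each mouse or Mouse1592 library left out, and batches G, H or I left out. The fit without weights, the left-out batches and leaving out mice from the difference between stimulated and sham effects were chosen after seeing the data. The mouse numbers pair the stimulated and sham slices of 8 of the 9 mice, not the treatments. The fits were checked on simulated data.

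The members and gene lists were chosen with earlier results of these data known. Whether reads of the human transgene count under mouse App or Thy1 is not given. The genes named were the 10 higher and the 10 lower genes of smallest p averaging at least 1 CPM, predicted genes left out, the first 2 and up to 6 further members of each list at an unadjusted p under 0.05, marker genes chosen likewise, and Ntrk2, Ntrk3, Ngfr, Bdnf, Ntf3, Thy1 and App. Others were named after their values were seen, among them further list members and H2-Ab1, Ciita, C1qb and C1qc. Results for some genes are not reported here.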

Additional observations from a re-analysis of the deposited data

Results flagged for a closer look

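Of 322 groups of 4 or 5 mice looked at for named genes and list scores, 13 held 1 mouse far from the others, and chance sets apart about 1 in 20 groups. Mouse1572 stood apart among the BD10-2 mice for H2-DMb1 (9.04 CPM), H2-Eb1 (59.2 CPM), Prox1 (87.9 CPM, low) and the score of meningeal fibroblast markers (1.82, high). Mouse1564 stood apart for Rps6 (212 CPM), Rarres2 (6.05 CPM) and the ribosomal protein score (7.24), all high. Mouse1563 was low for Pkm (588 CPM) and App (953 CPM), and Mouse1592 was low for the interferon score (4.45). Among the vehicle mice, Mouse1551 was high for Hspb1 (9.08 CPM), Mouse1553 low for Pdgfra (35.4 CPM) and Mouse1510 low for H2-Ab1 (3.73 CPM).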

How the results depend on the processing

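The count of 0 genes called between BD10-2 and vehicle in stimulated T41B slices stayed at 0 in the alternatives run, except that leaving out batch G called 1 gene, Gm21982. Beside it, stimulated WT slices gave 25 called genes with DESeq2 and 6 with limma-voom and sample quality weights, and the difference between stimulated and sham T41B slices gave 1, Gm4294, with DESeq2. The homeostatic microglia median was 0.70 without batch I. With the mouse as replicate block, 0 genes were called in each comparison, with 722 at an unadjusted p under 0.05 in stimulated T41B slices. In the difference between stimulated and sham T41B slices, limma-voom gave 1235 genes at an unadjusted p under 0.05 with the mouse block and 557 without block or weights, where edgeR gave 526. That block changed no call. That difference stayed at 0 called genes when any 1 mouse was left out of the stimulated slices. Among log2 fold changes over 1 SE from 0 as reported, those with the other sign in a setting were, without batch G, Ttr (1.83), Clic6 (0.39) and Fibcd1 (0.0577), without batch H, Syn1 (0.0136), Il1b (-0.21) and Aqp4 (-0.0838), and without batch I, Ciita (-0.00777). With 1 mouse left out, Coch ran from -0.85 to 0.0527 and Slc17a6 from -0.92 to 0.0632. All of these except Ttr then lay within 1 SE of 0, with the SE as reported, and so lost their direction rather than turning. The cause was not tested. For genes under 1 CPM the depth gives wide intervals.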
